A study of Rattus norvegicus with 48 samples.

Results

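Whether 3 days in a hindlimb cast acted on the same genes in the same way in the plantaris and in the soleus was examined in HRT rats, the line selectively bred for a high response to endurance training. The contrast used 24 of the 48 RNA sequencing libraries of the study, 6 in each of 4 groups: plantaris and soleus of the casted limb (HRT-HI) and plantaris and soleus of separate uncasted rats of the same line (HRT-CTRL). For each gene the change with immobilization in soleus was subtracted from the change with immobilization in plantaris on the log2 scale, so that a positive value is a response that was more positive in plantaris and a negative value one that was more positive in soleus. This difference is called the interaction below, and the change within a single muscle is called the response. All rats were females of generation 19, 14 months old, that had earlier completed treadmill training. The foot was cast in plantar-flexion, and all rats, controls included, received puromycin before the muscles were removed. Both muscles came from each rat, with 6 rats in each HRT group. The other 24 libraries came from the same 4 groups in the line bred for a low response (LRT), and were used here as a set of separate rats in which the same interaction could be computed.

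The plantaris is a calf muscle made mostly of fast fibres that draw on glycolysis, whereas the soleus beside it is a postural muscle of mainly slow, oxidative fibres that is active for much of the day. When load is removed, muscle is lost through slower protein synthesis and faster breakdown, the latter mainly by the ubiquitin-proteasome system and by autophagy, for which the ubiquitin ligases Trim63 (MuRF1) and Fbxo32 (atrogin-1) are the usual marker genes. Slow fibres under disuse also take on part of the gene programme of fast fibres.

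The files paired a gene symbol with only 1148 of the 16960 genes tested (6.77%). These were genes that the study had itself listed, as changed with immobilization or for other reasons, such as atrophy genes known from earlier work. Counts over named genes are therefore a description of that selection. The labelled muscles carried their defining transcripts: the 8 fast fibre markers with a symbol were all higher in HRT-CTRL plantaris than soleus (18.9% of all genes were), with summed levels of 18761 to 21992 CPM (counts rescaled to a common library size after TMM scaling) in plantaris and 1505 to 2622 in soleus, and 3 of the 4 slow fibre markers were higher in soleus (19.9% of all genes were). Library totals in the HRT groups ran from 26.9 to 35.0 M estimated counts and RNA integrity numbers from 7.8 to 8.6. The lowest of these labelled numbers lie below the score that the study's methods give for its samples, a conflict that was not settled here. Measured as the typical log2 distance of a library from its group median, HRT libraries lay between 0.332 and 0.672 (median 0.379), and the HRT-CTRL soleus library numbered 1 (0.672) and the HRT-HI plantaris library numbered 4 (0.517) were the farthest. Values without one or the other are given below for the calls, the atrophy genes and the lists that they moved most. In whole muscle, fewer cells of a type and less RNA per cell cannot be told apart. The labels describe soleus and plantaris libraries as prepared separately, so any difference in preparation and the difference between muscles cannot be told apart in levels, although each response compares libraries of 1 muscle.

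Of the 16960 genes, 16 (0.0943%) differed in their response between the muscles at an adjusted p below 0.05 (edgeR quasi-likelihood test, Benjamini-Hochberg adjustment). Among them 7 (0.0413%) had the more positive response in plantaris and 9 (0.0531%) in soleus, with absolute interactions of 0.62 to 3.06 and a median of 0.86. With library totals as the only scaling, 14 genes were called, of which 11 were higher and 3 lower. DESeq2 called 110 (76 higher, 34 lower), the fit without the RNA integrity covariate 64 (42 and 22), and the fit of all genes with any count 1 (lower). At an unadjusted p below 0.05 there were 2088 genes (12.3%), 1128 higher (6.65%) and 960 lower (5.66%). The number of adjusted calls turned on single libraries. Leaving out HRT-HI plantaris number 1, 2, 4 or 6 left 8, 8, 2 and 7 calls, and leaving out number 3 gave 26. Among HRT-CTRL plantaris libraries, without number 1, 3, 4, 5 or 6 there were 5, 1, 2, 9 and 8 calls. For HRT-HI soleus the counts were 1, 9, 27, 6 and 9 without number 1, 2, 3, 4 or 6, and for HRT-CTRL soleus 27, 4 and 1 without number 2, 4 or 5. All 16 genes kept their direction in each of these 24 fits, with an unadjusted p of at most 4.47e-04. The muscles of a rat were treated as independent in these fits. With the library number as a block, 129 genes were called by edgeR and 150 by limma-voom. These included 14 and 16 of the 16 genes.

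Only 3 of the 16 genes carried a symbol, namely Hs3st1, Gabrr1 and Glrx, and all 3 had the more negative interaction. Because they share that direction, the 250 bases before the start site of each are shown, as RefSeq gives them for the rat assembly GRCr8 on the plus strand. The estimated counts themselves were made on Rnor_6.0. Capitals mark the matches to the motifs searched.
Hs3st1, chr14:75398723-75398972: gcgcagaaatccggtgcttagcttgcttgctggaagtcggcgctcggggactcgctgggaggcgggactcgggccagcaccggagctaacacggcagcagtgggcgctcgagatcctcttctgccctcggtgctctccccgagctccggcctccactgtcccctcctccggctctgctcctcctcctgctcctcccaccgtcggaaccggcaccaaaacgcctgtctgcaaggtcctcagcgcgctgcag
Gabrr1, chr5:52320225-52320474: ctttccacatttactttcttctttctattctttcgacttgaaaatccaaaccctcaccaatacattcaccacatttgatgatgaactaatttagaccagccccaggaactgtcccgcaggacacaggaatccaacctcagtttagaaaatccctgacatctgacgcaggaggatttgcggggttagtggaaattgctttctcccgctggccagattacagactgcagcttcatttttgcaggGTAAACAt
Glrx, chr2:7073545-7073794: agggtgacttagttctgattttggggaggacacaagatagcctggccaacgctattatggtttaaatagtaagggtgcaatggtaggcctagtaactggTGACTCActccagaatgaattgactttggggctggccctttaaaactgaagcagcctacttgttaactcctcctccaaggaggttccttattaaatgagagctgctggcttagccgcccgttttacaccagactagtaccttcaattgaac
The letters CAGCTG (a muscle E-box), CATTCC (an MCAT element), TGANTCA (an AP-1 site) and GTAAACA (a forkhead site) were searched on both strands. The Gabrr1 window held 1 GTAAACA close to the start site, letters found in 3.21% of the 33469 rat windows of this length. The Glrx window held 1 match to TGANTCA, found in 6.34% of the windows. CAGCTG and CATTCC occur in 12% and 12.1% of all windows and in none of these 3. The Hs3st1 window held no match and was 67.6% G and C, against 44% for Gabrr1 and 46% for Glrx. A match describes letters in the window and does not show binding.

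Hs3st1, which encodes a sulfotransferase that modifies heparan sulfate chains at the cell surface, had the smallest p of all genes. In plantaris it lay between 24.1 and 32.0 CPM (median 26.2) in HRT-CTRL and between 2.59 and 9.62 CPM (median 6.57) in HRT-HI. In soleus it lay between 1.77 and 3.93 CPM (median 2.33) in HRT-CTRL and between 2.27 and 3.41 CPM (median 3.05) in HRT-HI. The casted and control plantaris libraries did not overlap, the soleus libraries did, and the casted plantaris range overlapped that of the soleus. The response was -2.20 (adjusted p = 9.42e-06) in plantaris and 0.24 (adjusted p = 0.637) in soleus, and the interaction was -2.44 ± 0.42 (SE, adjusted p = 0.0143). It was called in all 24 fits that left out a library and in 11 of 11 other alternatives.

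Gabrr1, a subunit of a chloride channel gated by the transmitter GABA, had the largest absolute interaction of the 16 and moved in opposite directions in the muscles. Control plantaris held 4.15 to 10.2 CPM (median 5.55), and casted plantaris 1.15 to 2.80 CPM (median 2.09). Control soleus held 0.0760 to 0.743 CPM (median 0.298), from a count of 2 upward, and casted soleus 0.576 to 1.41 CPM (median 0.991). The plantaris groups were apart while the soleus groups overlapped at their edges. Its level fell in plantaris (-1.62, adjusted p = 0.00504) and rose in soleus (1.44, adjusted p = 0.0278), giving an interaction of -3.06 ± 0.60 (SE, adjusted p = 0.0333). The call was lost, with an adjusted p of up to 0.0959, without HRT-HI plantaris number 4 or 6, HRT-CTRL plantaris number 3, 4 or 6, HRT-HI soleus number 1, or HRT-CTRL soleus number 4 or 5. It was called in 9 of 10 other alternatives, with an adjusted p of 0.0571 in the remaining one.

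For Glrx, the glutaredoxin that reduces protein-glutathione disulfides, the change lay in soleus. Control and casted plantaris overlapped, at 2.20 to 2.97 CPM (median 2.51) and 1.62 to 3.20 CPM (median 1.95). Control soleus held 0.646 to 1.12 CPM (median 0.958) and casted soleus 1.25 to 2.62 CPM (median 2.24), with every casted library above every control. Glrx rose in soleus (1.15, adjusted p = 3.43e-04), its plantaris response was -0.26 (adjusted p = 0.416), and the interaction was -1.41 ± 0.30 (SE, adjusted p = 0.0333). It was called in 11 of the 24 fits without a library and in 8 of 11 other alternatives. Losses occurred without HRT-HI plantaris number 1, 2 or 4, HRT-CTRL plantaris number 1, 3, 4 or 6, HRT-HI soleus number 1, 4 or 6, and HRT-CTRL soleus number 4, 5 or 6, with an adjusted p of at most 0.0975.

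**Figure D1:**
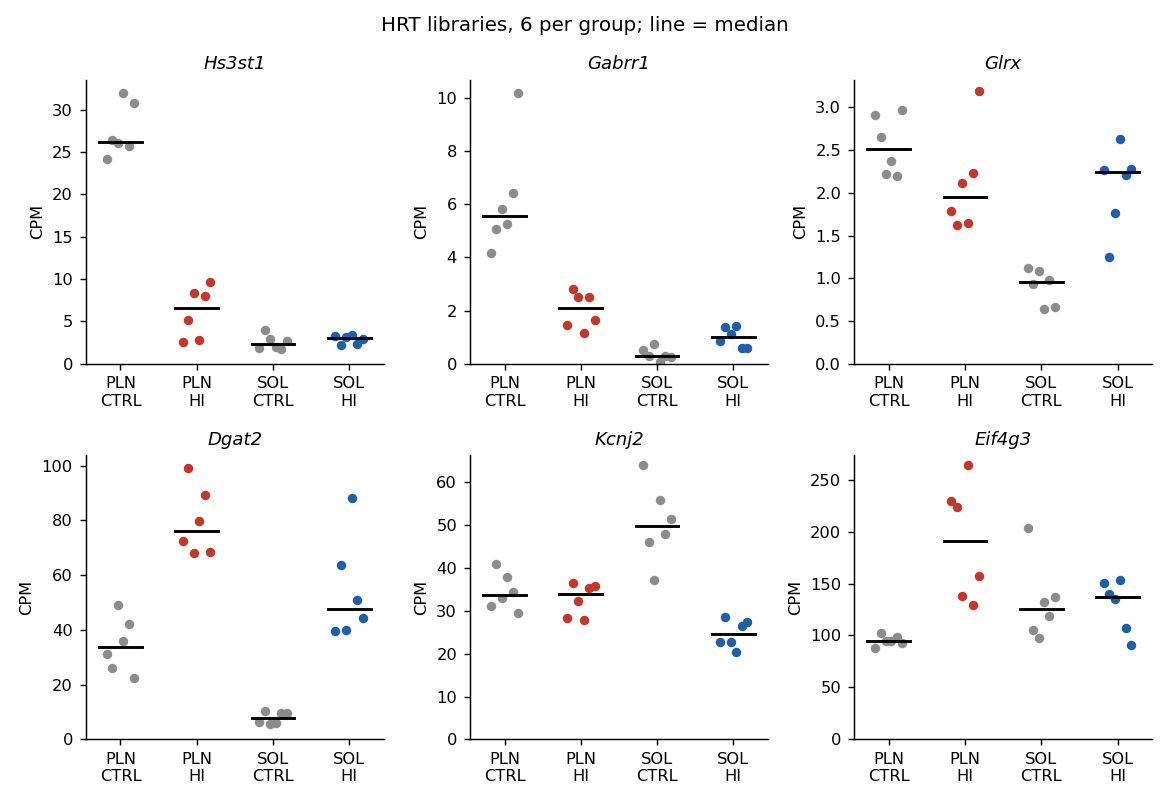
CPM of 6 genes in the 24 HRT libraries (points; 6 per group, line at the median; each panel has its own axis). In Hs3st1 the control plantaris stands above the other 3 groups, at a median of 26.2 CPM, and in Glrx the control soleus lies below casted soleus, at medians of 0.958 and 2.24 CPM.

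The other 13 called genes have identifiers only, and 7 were higher and 6 lower. The 7 genes with the more positive response in plantaris had interactions of 0.64 to 1.02. In ENSRNOG00000006329 (0.71 ± 0.14 SE, adjusted p = 0.0333) the 6 control soleus libraries, at 19.4 to 27.1 CPM, stood above the casted soleus, whose median was 13.4 and highest value 14.9 CPM, whereas control and casted plantaris overlapped at 11.9 to 14.6 and 12.7 to 14.2 CPM. ENSRNOG00000018228 (0.69 ± 0.14 SE, adjusted p = 0.0333) had the same shape, with 24.7 to 40.1 CPM in control soleus, 17.2 to 23.2 in casted soleus, and 17.6 to 21.0 and 18.1 to 23.2 in control and casted plantaris. In both genes, then, casted soleus came to lie within or beside the range of the plantaris. Among the lower genes ENSRNOG00000015774 (-0.89 ± 0.18 SE, adjusted p = 0.0333) was at 59.3 to 75.5 CPM in control and 41.4 to 53.0 CPM in casted plantaris, and at 28.4 to 44.6 and 39.2 to 54.3 CPM in control and casted soleus. It fell in plantaris (-0.52, adjusted p = 0.00704) and rose in soleus (0.37, adjusted p = 0.0372). For ENSRNOG00000031515 (-0.80 ± 0.15 SE, adjusted p = 0.0333) the plantaris groups, at 4.99 to 6.68 and 3.40 to 4.53 CPM, were apart and the soleus groups overlapped. At the threshold, the last genes inside were ENSRNOG00000062308 (-1.96) and ENSRNOG00000005076 (1.02), both with an adjusted p of 0.0462, and the first outside was Dgat2 (adjusted p = 0.0524). Of the 24 fits without a library, ENSRNOG00000006329 was called in 17, ENSRNOG00000018228 in 11, ENSRNOG00000015774 in 18 and ENSRNOG00000031515 in 20. ENSRNOG00000062308 was called in 6 of them and ENSRNOG00000005076 in 4.

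Within single muscles many more genes passed than in the interaction, but the 2 counts come from tests of unlike precision. For Kcnj2 the standard error was 0.22 for the interaction and 0.15 and 0.16 for the plantaris and soleus responses. The counts therefore do not show how many genes truly differed between the muscles. In HRT plantaris 1859 genes passed (11%), 867 higher (5.11%) and 992 lower (5.85%), and in HRT soleus 2744 passed (16.2%), 1348 higher (7.95%) and 1396 lower (8.23%). The split depends on the scaling: with library totals alone 2517 genes were higher and 502 lower in plantaris, and 1654 higher and 925 lower in soleus. Without HRT-HI plantaris number 1 or 4 or HRT-CTRL plantaris number 6 the plantaris count was 1072, 933 and 1086, and without HRT-HI soleus number 1 the soleus count was 1376. Of the genes called in each muscle, 642 were shared, 34.5% of the plantaris and 23.4% of the soleus calls. Their directions matched in 637 and were opposite in 5, and 4 of these 5 were also called in the interaction. Among the 5 were Gabrr1, ENSRNOG00000015774 and AABR07062183.1, singled out after their values were seen. Across all genes the responses in the muscles were related with r = 0.48 (Pearson) and rho = 0.47 (Spearman), a description over genes that are not independent replicates and that were measured in the same rats. The median response over all genes was 0.018 in plantaris and 0.0097 in soleus and the median interaction 0.0020. Scaling by library totals alone raised the plantaris median by 0.16.

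The 16 called genes were described by where their response lay, with no test because both responses enter the interaction. Responses had opposite signs in 14 of them (32.6% of all genes). Of the 16, 4 were called in plantaris only, 8 in soleus only, 4 in both and 0 in neither by the same edgeR test. Of all 16960 genes, 1217 were called in plantaris only, 2102 in soleus only, 642 in both and 12999 in neither. Casted and control values did not overlap in plantaris for 8 (8.66% of all genes) and in soleus for 6 (4.56% of all genes).

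**Figure D2:**
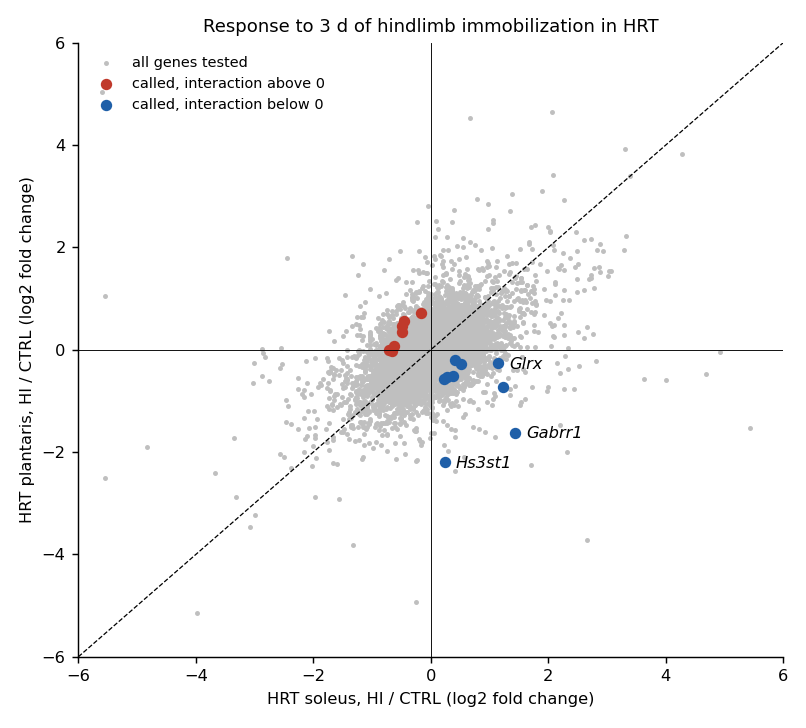
Response to immobilization (log2 fold change, HI minus CTRL) of each of 16960 genes in HRT soleus (horizontal) and HRT plantaris (vertical). The 16 genes of the interaction are marked, and 4 genes lie outside the axes. Most marked genes sit in the quadrants of opposite sign, 14 of 16, while the cloud follows the rising diagonal with an r of 0.48.

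Beyond the 16, the genes with a symbol that had the smallest p on the lower side were Dgat2, Il18bp, AABR07062183.1, Chac1, RGD1307461, Crhr2 and Pik3ip1, and all 7 rose in soleus. Dgat2, which makes triacylglycerol, rose in both muscles: control and casted plantaris were at 22.6 to 49.0 CPM (median 33.7) and 68.1 to 99.1 CPM (median 76.0), and control and casted soleus at 5.67 to 10.5 CPM (median 7.95) and 39.6 to 88.3 CPM (median 47.7). Neither muscle's groups overlapped, the responses were 1.20 (adjusted p = 0.00172) and 2.78 (adjusted p = 1.63e-09), and the interaction of -1.59 ± 0.35 (SE) missed the threshold at 0.0524. Chac1, an enzyme that degrades glutathione, rose in soleus from a median of 1.20 CPM (0.632 to 2.98) to 8.54 CPM (4.33 to 11.3), while plantaris held 22.7 to 74.5 CPM in controls and 31.0 to 80.5 CPM in casted muscle (interaction -2.16, adjusted p = 0.0852). Pik3ip1, an inhibitor of phosphatidylinositol 3-kinase, rose in soleus from 10.7 to 15.9 CPM in controls to 41.5 to 88.0 CPM in casted muscle, against 35.0 to 77.0 and 42.1 to 111 CPM in plantaris (interaction -1.55, adjusted p = 0.121). In Chac1 and Pik3ip1 the soleus groups were apart and the plantaris groups overlapped. Casted soleus of Pik3ip1 lay within the plantaris range, and that of Chac1 stayed below it.

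Il18bp, which binds and blocks interleukin-18, went from 4.97 to 7.96 CPM in control to 9.43 to 25.2 CPM in casted soleus (interaction -1.38, adjusted p = 0.0726). Crhr2, a receptor for corticotropin-releasing peptides, had a soleus response of 2.16 (adjusted p = 0.00130) and an interaction of -2.42 (adjusted p = 0.104). RGD1307461 and AABR07062183.1 rose in soleus by 0.89 and 0.65 (adjusted p = 0.0455 and 0.0351), with interactions of -1.72 and -1.30 (adjusted p = 0.0945 and 0.0828). AABR07062183.1 fell in plantaris as well (-0.66, adjusted p = 0.0482). None of these passed the interaction test at 0.05 as fitted here, but of 11 alternatives Dgat2 and AABR07062183.1 passed in 6, Il18bp, Chac1 and RGD1307461 in 5, Crhr2 in 3 and Pik3ip1 in 2. With the library number as a block in edgeR, all 7 but Pik3ip1 (adjusted p = 0.0622) passed.

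On the higher side no gene with a symbol passed in the fit that treats the muscles of a rat as independent. With the library number as a block, 8 of the 10 genes named here passed by edgeR and 10 of 10 by limma-voom. Of the 10 with the smallest p, Kcnj2 passed in 7 and Tmem100 in 6 of 11 alternatives, LOC100362684, Eif4g3, Sdc4 and Igf1r in 5, Bach1 and Eda2r in 4, and Fam110a and Dusp13 in 3. LOC100362684, Kcnj2, Fam110a and Sdc4 fell in soleus and did not pass in plantaris. Kcnj2, the inward rectifier potassium channel Kir2.1, was at 37.2 to 64.1 CPM (median 49.7) in control and 20.3 to 28.5 CPM (median 24.6) in casted soleus, and at 29.5 to 41.0 and 27.8 to 36.5 CPM in control and casted plantaris. Its soleus groups were apart, its plantaris groups overlapped, the soleus response was -1.02 (adjusted p = 3.27e-05) and the interaction 0.93 ± 0.22 (SE, adjusted p = 0.0783). Sdc4, a heparan sulfate proteoglycan of the cell surface, was at 83.9 to 125 CPM in control and 30.6 to 63.1 CPM in casted soleus (interaction 1.32, adjusted p = 0.0945). Casted soleus of Sdc4 thus lay in the range of plantaris, at 36.2 to 53.8 CPM in controls and 29.1 to 94.1 CPM in casted muscle. For LOC100362684 and Fam110a the interactions were 1.49 and 2.52 (adjusted p = 0.0726 and 0.0828).

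Eif4g3, Igf1r, Bach1, Eda2r, Tmem100 and Dusp13 rose in plantaris and did not pass in soleus. Eif4g3, a scaffold of translation initiation, was at 87.9 to 103 CPM (median 94.8) in control and 129 to 264 CPM (median 191) in casted plantaris, against 97.6 to 203 and 90.4 to 153 CPM in soleus, where the highest control value was from library number 1 (interaction 1.02 ± 0.25 SE, adjusted p = 0.0852). Igf1r, the receptor for insulin-like growth factor 1, was at 8.98 to 11.9 and 13.6 to 21.3 CPM in control and casted plantaris (interaction 0.88, adjusted p = 0.102). Bach1, a repressor of antioxidant genes, was at 20.6 to 26.1 and 29.8 to 77.6 CPM (interaction 1.03, adjusted p = 0.104). In these 3 genes every casted plantaris library was above every control, and in Bach1 the top value came from library number 4. Eda2r, a receptor of the tumour necrosis factor family, was at 9.84 to 16.5 CPM in control and 24.8 to 149 CPM in casted plantaris, where numbers 1 and 4 held 120 and 149 CPM, and overlapped between the soleus groups (interaction 2.25, adjusted p = 0.104). Tmem100 and Dusp13 had interactions of 1.94 and 0.72 (both adjusted p = 0.0852). The symbol Dusp13, a dual-specificity phosphatase, stands on more than 1 identifier, and the value is that of ENSRNOG00000060401.

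The same interaction was then read in the LRT line, whose rats and libraries do not enter the HRT contrast itself, although both lines were fitted together and share the estimate of the spread. A fit of the 24 HRT libraries alone called 11 genes, 7 of them among the 16. In the joint fit, which treats the muscles of a rat as independent, 370 genes passed in LRT (2.18%). This count was 693 without HRT-HI plantaris number 4 and 732 without HRT-CTRL soleus number 1. It was also higher with the library number as a block, as given under the dependence on processing. All 16 HRT genes had the same direction in LRT (70.8% of all genes did), 15 of them with an unadjusted LRT p below 0.05 in that direction (16.7% of all genes), and 11 also passed in LRT. In the fit without a block the 11 shared genes were 68.8% of the HRT and 2.97% of the LRT calls. For Hs3st1 the LRT interaction was -2.30 (adjusted p = 0.00463), for Gabrr1 -3.57 (adjusted p = 0.00241), and for Glrx -1.34 (adjusted p = 0.0181), so all 3 named genes were called in each line. Read from the other side, 363 of the 370 LRT genes (98.1%) had the same direction in HRT and 226 (61.1%) had an HRT p below 0.05 in that direction. Of the 2088 genes with an unadjusted p below 0.05 in HRT, 1915 (91.7%) had the same direction in LRT and 1006 (48.2%) an LRT p below 0.05 with it. Over all genes the HRT and LRT interactions were related with r = 0.46 (Pearson) and rho = 0.54 (Spearman), given as a description across genes. With each line fitted on its own 24 libraries, r was 0.52 over 16209 genes and all 16 genes again had 1 direction.

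**Figure D3:**
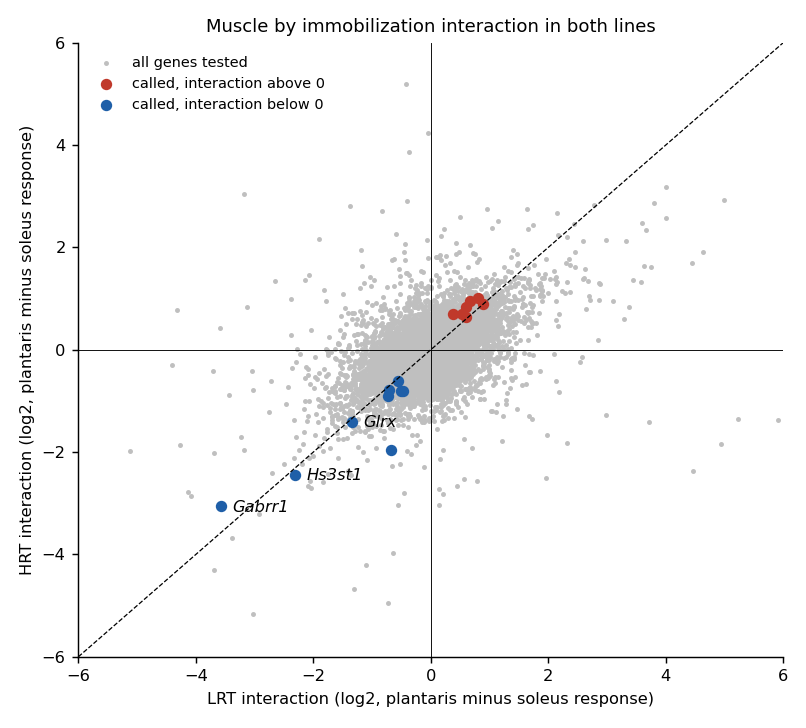
Interaction (log2, plantaris response minus soleus response) of each of 16960 genes in LRT (horizontal) and HRT (vertical). The 16 HRT genes are marked, and 13 genes lie outside the axes. All 16 marked genes fall in the quadrants of equal sign, 11 of them being called in LRT as well.

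No gene had an interaction that differed between the lines by the edgeR test without a block (0 of 16960, 0%), with 461 genes at an unadjusted p below 0.05 (2.72%). DESeq2 called 4 and limma-voom 0. A share of 2.72% is below what this threshold would give with no difference, so the test may be conservative here. Its lack of calls does not show that the lines are alike. The unadjusted count was higher with the library number as a block, as given under the dependence on processing. The smallest unadjusted p was 1.01e-04 and every adjusted p was 1. Among genes with a symbol the smallest p belonged to LOC100362684, with an interaction of 1.49 in HRT and -0.41 in LRT (difference 1.90 ± 0.47 SE, unadjusted p = 2.09e-04). Lrrn2 followed with a difference of 2.73 (unadjusted p = 0.00133), at levels of 0.127 to 1.62 CPM in the HRT libraries. Tg, thyroglobulin, had a difference of 3.13 (unadjusted p = 0.00343) at 0.320 to 7.05 CPM, its highest values being HRT-HI plantaris number 4 and HRT-CTRL soleus number 3. Tmem51 and LOC100911515 had differences of -1.77 and 2.58 (unadjusted p = 0.00469 and 0.00506), and the HRT interaction of LOC100911515 was -0.17 without HRT-CTRL soleus number 1, against 1.09 with it.

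Genes were next divided by how their level differed between uncasted muscles, using only LRT-CTRL libraries so that the division and the HRT interaction shared no library. Of all genes, 805 (4.75%) were higher by more than 1 log2 unit at an adjusted p below 0.05 in LRT-CTRL plantaris and 894 (5.27%) in LRT-CTRL soleus. The 805 plantaris-enriched genes had a median HRT interaction of -0.29, with 141 (17.5%) below 0 at an unadjusted p below 0.05 and 14 (1.74%) above, whereas 5.66% and 6.65% of all genes were. In soleus 100 of these genes rose and 19 fell with immobilization, and in plantaris 45 rose and 68 fell. The 894 soleus-enriched genes had a median of 0.19, with 125 (14%) above 0 at p below 0.05 and 15 (1.68%) below. Of these 32 rose and 208 fell in soleus, and 23 rose and 44 fell in plantaris. In the remaining 15261 genes the median was 0.0053 with 6.48% above and 5.27% below. Of the 16 called genes 3 were plantaris-enriched, all lower, and 1 was soleus-enriched, which was higher. Over all genes 7.95% rose and 8.23% fell in soleus, and 5.11% rose and 5.85% fell in plantaris. In soleus, then, plantaris-enriched genes rose more often than they fell and soleus-enriched genes fell more often than they rose. Across all genes the HRT interaction and the LRT-CTRL muscle difference had an r and a rho of -0.21 each, which is weak. With the lines fitted apart the counts were 15 above and 154 below for plantaris-enriched and 116 above and 18 below for soleus-enriched genes.

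**Figure D4:**
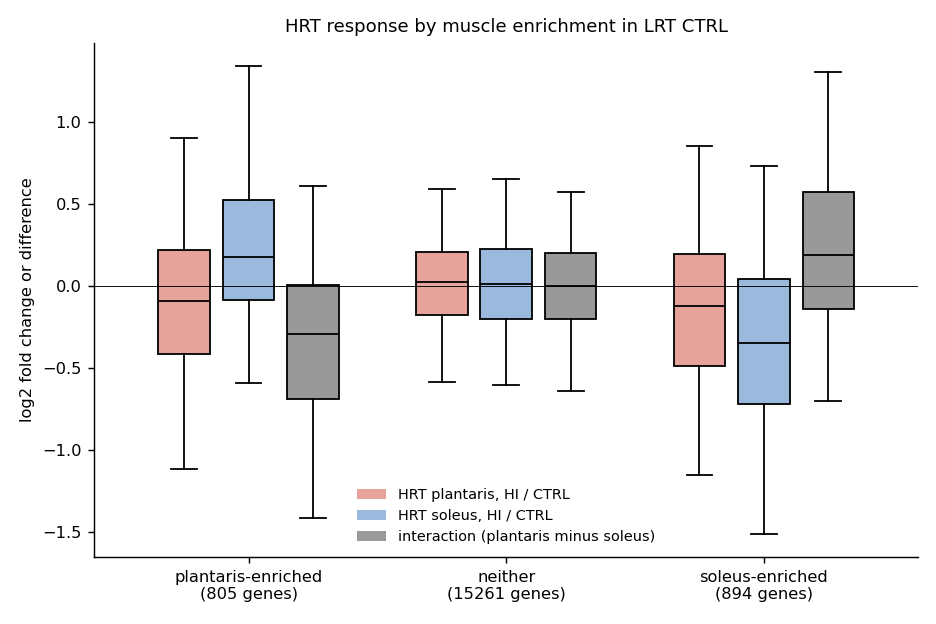
HRT plantaris response, HRT soleus response and HRT interaction (log2, a box for each) of genes grouped by their level in LRT-CTRL muscles. The interaction is centred at -0.29 in plantaris-enriched genes (805), 0.19 in soleus-enriched genes (894) and 0.0053 in the other 15261. Its distributions overlap widely.

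Lists of genes by function were described next. Only members with a symbol could be read, all of them genes the study had itself listed, as changed or as known atrophy genes among others. Their counts are therefore no independent evidence of a direction. No member of any list passed the interaction test at an adjusted p of 0.05 in the fit without a block, although Eif4g3, Igf1r and Pik3ip1 of the insulin and translation list passed in some alternatives, as given above. Counts of members with an unadjusted p below 0.05 are given instead, against 6.65% higher and 5.66% lower over all genes. Counts of members that rose or fell stand against 5.11% and 5.85% of all genes in plantaris and 7.95% and 8.23% in soleus. The members named as examples in these lists were chosen after their values were seen.

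Protein breakdown was covered by 3 lists, each with a median above 0. For the 12 of 20 ubiquitin ligase and ubiquitin genes with a symbol the median interaction was 0.60, with 10 above 0 and 3 higher at p below 0.05, and 7 rose and 2 fell in plantaris against 1 and 2 in soleus. All 7 of 33 proteasome genes that could be read lay above 0 (median 0.68, 3 at p below 0.05), among them Psmd5 (0.95) and Adrm1 (0.91), and 5 rose in plantaris and 0 in soleus. All 11 of 24 autophagy and lysosome genes lay above 0 (median 0.70, 4 at p below 0.05), with 8 that rose in plantaris and 2 that rose and 1 that fell in soleus. Examples were Foxo1 (0.99), a transcription factor that drives atrophy genes, Sqstm1 (0.87), the cargo receptor p62, and Gaa (0.70), lysosomal acid glucosidase. These counts leaned on HRT-HI plantaris number 4. Without that library 3 ubiquitin, 0 proteasome and 4 autophagy genes rose in plantaris, the medians were 0.43, 0.39 and 0.43, and 2 genes of each list were at p below 0.05 on the higher side. Interactions above 0 then numbered 10 of 12 ubiquitin, 6 of 7 proteasome and 9 of 11 autophagy genes.

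Of the 6 atrophy genes looked up by name, Trim63, Gadd45a, Cdkn1a and Ampd3 had HRT-HI plantaris number 4 standing apart from its group (Dixon's test at the 95% level). In Fbxo32 and Hdac4 that library was the highest of its group but did not stand apart by this test. Trim63 held 176 to 221 CPM (median 200) in control and 308 to 1843 CPM (median 360) in casted plantaris, and 105 to 162 CPM (median 143) in control and 131 to 250 CPM (median 146) in casted soleus. The plantaris groups were apart and the soleus groups overlapped, but 1843 CPM was library number 4 and the next highest 512. Trim63 rose in plantaris (1.62, adjusted p = 0.00479), its soleus response was 0.21 (adjusted p = 0.745), and its interaction of 1.42 ± 0.53 (SE, unadjusted p = 0.0104, adjusted p = 0.25) became 0.76 (unadjusted p = 0.0746) without number 4. In LRT the interaction of Trim63 was 2.13 (adjusted p = 0.0242). Fbxo32 was at 144 to 297 CPM (median 266) and 344 to 1443 CPM (median 613) in control and casted plantaris, and at 180 to 347 (median 247) and 207 to 445 CPM (median 336) in soleus. It rose in plantaris (1.58, adjusted p = 0.00295), did not pass in soleus (0.36, adjusted p = 0.484), and had an interaction of 1.22 (adjusted p = 0.276), or 0.95 without number 4.

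Hdac4, a deacetylase that responds to loss of nerve activity, rose in each muscle, by 2.29 in plantaris and 2.02 in soleus (adjusted p = 0.00121 and 0.00202). Its interaction was 0.27 ± 0.64 (SE, adjusted p = 0.907) and -0.0054 without plantaris number 4. Gadd45a, a stress gene induced in disuse, rose in each muscle too, by 2.07 and 1.67 (adjusted p = 0.00632 and 0.0131), with an interaction of 0.40 ± 0.69 (SE, adjusted p = 0.856) that was -0.26 without that library. Wide standard errors left both differences poorly resolved. Cdkn1a, the cell cycle inhibitor p21, passed in neither muscle (interaction 0.69, adjusted p = 0.693, and 0.28 without plantaris number 4). Ampd3, an adenosine monophosphate deaminase, had 13.1 to 21.5 CPM in control plantaris and 16.7 to 469 CPM (median 23.1) in casted plantaris, where numbers 1 and 4 held 152 and 469 CPM. In soleus Ampd3 was high throughout, at 78.4 to 180 CPM in controls and 86.5 to 163 CPM in casted muscle. The interaction of Ampd3 was 2.87 ± 0.91 (SE, adjusted p = 0.179), and 1.64 without number 4, and in LRT it was 3.80 (adjusted p = 0.0205).

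**Figure D5:**
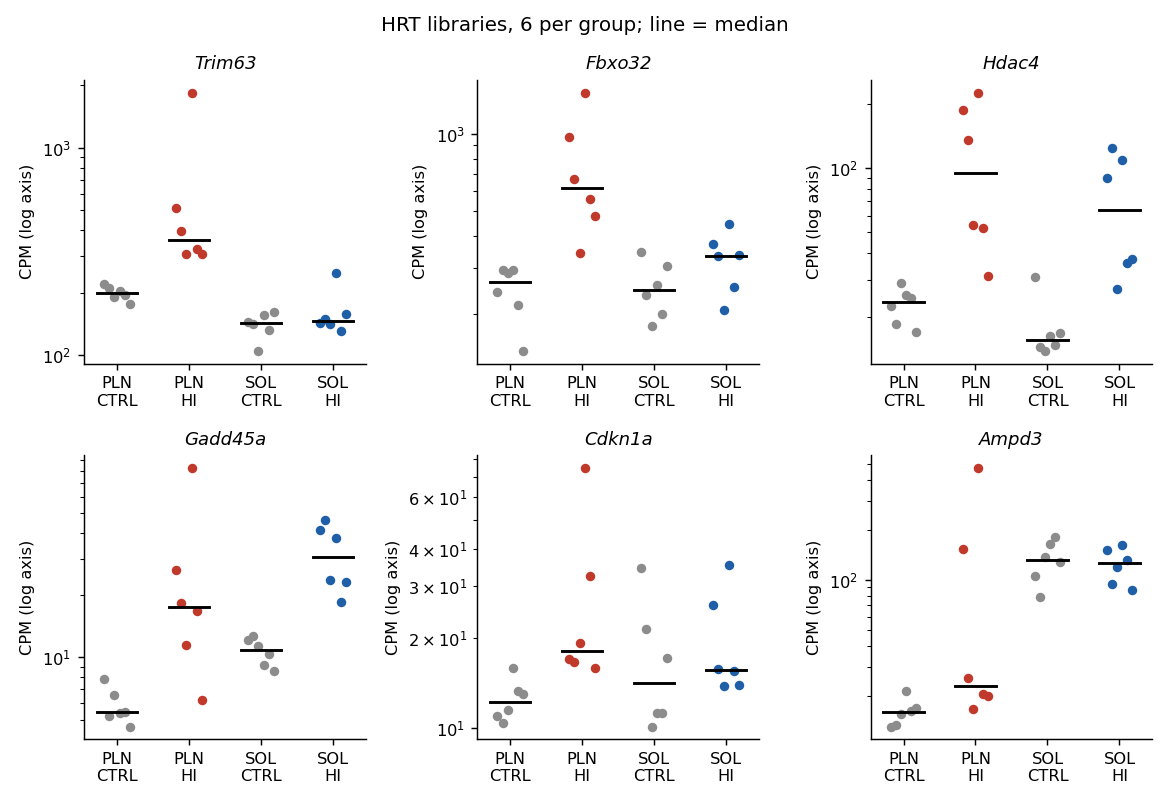
CPM (log axis) of 6 atrophy genes in the 24 HRT libraries (points; 6 per group, line at the median). In Trim63, Gadd45a, Cdkn1a and Ampd3 a single casted plantaris library, number 4, stands above the other 5, at 1843 CPM in Trim63.

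Genes of energy metabolism lay on the other side. Of the 23 of 32 glycolysis and glycogen genes read, 21 had an interaction below 0 (median -0.65), with 11 lower and 1 higher at p below 0.05. In plantaris 7 fell and 1 rose, while in soleus 0 fell and 3 rose. Pgam2, the muscle form of phosphoglycerate mutase, fell in plantaris from a mean of 2011 to 957 CPM (-1.07, adjusted p = 0.0147) and was at 299 and 344 CPM in control and casted soleus (interaction -1.27, adjusted p = 0.194). Pkm, pyruvate kinase, had an interaction of -0.84 and Fbp2, the muscle fructose bisphosphatase, one of -1.98, both falling in plantaris. Gaa is also a member of this list and was its higher gene. Without HRT-HI plantaris number 4 the list had 6 lower genes at p below 0.05, a median of -0.56, and 1 gene that fell in plantaris. All 8 fast fibre markers also lay below 0 (median -0.96, 5 at p below 0.05), as did the 4 slow fibre markers (median -0.46, 0 at p below 0.05). For the 25 of 38 mitochondrial energy genes the median was -0.27, with 22 below 0 but only 1 at p below 0.05 in each direction, and 19 fell in plantaris against 8 in soleus. That plantaris count was 10 without number 4, and the soleus count 13 without HRT-CTRL soleus number 1.

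Stress and early response lists had medians above 0. Heat shock chaperones, which refold damaged protein and are abundant in slow muscle, had a median of 0.65 over 12 of 20 genes, 11 of them above 0 and 2 at p below 0.05. Here 8 fell in soleus, 0 rose there, and in plantaris 1 rose and 2 fell. Without HRT-HI plantaris number 4 the list had 1 gene at p below 0.05 and 0 that rose in plantaris. Hspa1b, an inducible Hsp70, fell in soleus from a mean of 64.1 to 9.82 CPM (-2.56, adjusted p = 0.00442) and was at 24.9 and 22.7 CPM in plantaris (interaction 2.20, adjusted p = 0.271). Hsph1 had an interaction of 1.01 and likewise fell in soleus. Summed over the list, control soleus held 5131 to 10252 CPM and casted soleus 1395 to 7226 CPM, against 1654 to 2279 and 1094 to 2908 CPM in plantaris. Oxidative stress enzymes had a median of 0.58 over 17 of 21 genes, with 14 above 0 and 3 below and 7 higher at p below 0.05. Of these enzymes 7 rose and 2 fell in plantaris against 1 and 2 in soleus. Srxn1 (1.78), Pir (1.23) and Txnrd1 (0.78), all known targets of the antioxidant factor Nrf2, were among them. Without HRT-HI plantaris number 4, 2 enzymes were higher at p below 0.05, and 1 rose and 0 fell in plantaris. Immediate early genes, induced within minutes of a stimulus, had a median of 0.74 over 18 of 23 genes, with 17 above 0 and 6 at p below 0.05, of which Egr1 (1.62) and Cyr61 (1.40) are examples. In this list 4 rose and 1 fell in plantaris, and 1 rose and 6 fell in soleus. Without number 4 there were 3 genes at p below 0.05 and 2 that rose in plantaris.

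The denervation and disuse list (15 of 23 genes) had 11 interactions above 0 and 4 below, with 2 higher and 3 lower genes at p below 0.05, with Myog, a myogenic factor of denervation, at 1.39 and Ache, the acetylcholinesterase of the synapse, at -1.61. Without HRT-HI plantaris number 4 its median was 0.28, against 0.69 with it, and 8 lay above 0 and 7 below. Myod1, the myogenic factor enriched in fast muscle, rose in soleus (1.26, adjusted p = 0.00720) and had an interaction of -1.02. Of 26 extracellular matrix genes read (of 35), 13 fell in plantaris and 14 in soleus and 0 rose in either, and their interactions were divided, 12 above 0 and 14 below, with a median of -0.075. This median was 0.043 without HRT-HI plantaris number 4, 0.051 with library totals as the scaling, and -0.18 without HRT-CTRL soleus number 1, where 8 lay above 0 and 18 below. Without number 4, 8 of them fell in plantaris. Sarcomere and calcium handling genes (23 of 39) had a median of -0.19 with 2 at p below 0.05 in each direction, and with library totals a median of -0.11 with 11 above 0 and 12 below. Circadian clock genes (10 of 18) rose in both muscles more than they fell, 4 and 2 in plantaris and 7 and 3 in soleus, and 2 were lower at p below 0.05, an example being Bhlhe41 (-1.73), a transcriptional repressor of the clock, which rose in soleus. Lipid synthesis genes (10 of 16) had a median of 0.090, which was -0.034 without HRT-HI plantaris number 4 and 0.18 with library totals. The insulin and translation control genes (11 of 22) had a median of 0.51 with 5 higher and 1 lower at p below 0.05. The 4 metallothionein and zinc genes had a median of 0.78 (0.45 without HRT-CTRL soleus number 1) with 0 at p below 0.05. Of them 3 rose in plantaris, and 2 rose and 1 fell in soleus. The 10 interferon response genes had a median of -0.16 (-0.31 without HRT-HI plantaris number 4, and -0.033 with library totals), with 1 higher and 2 lower at p below 0.05, and 1 lower without number 4.

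Markers of other cell types were read in the same way. All 7 red blood cell genes had an interaction below 0 (median -1.35, 1 at p below 0.05), 6 rose in soleus and 0 passed in plantaris. Their summed level was 203 to 651 CPM (median 334) in control and 262 to 10691 CPM (median 1200) in casted soleus, and 363 to 521 CPM (median 433) and 343 to 3180 CPM (median 462) in plantaris. Of 12 leukocyte markers with a symbol 11 lay below 0 (median -0.62), 7 rose in soleus, and 2 rose and 2 fell in plantaris, or 1 and 1 without number 4. The exception, Gpnmb, a macrophage glycoprotein, rose in plantaris (2.73, adjusted p = 0.00225) and had an interaction of 2.34. Summed leukocyte levels were 66.0 to 86.6 and 61.6 to 186 CPM in control and casted plantaris, and 37.3 to 53.7 and 48.8 to 84.7 CPM in soleus. In LRT the leukocyte median was 0.10 and that of red blood cell genes -1.03. Fibroblast and tendon markers (9 of 11) had a median of -0.35, and 7 fell in plantaris and 4 in soleus, the latter being 1 without HRT-CTRL soleus number 1. The 6 smooth muscle and vessel, 2 Schwann cell and 1 adipocyte markers had medians of -0.19, -0.097 and 0.57. The first was -0.094 without HRT-HI plantaris number 4 and -0.11 with library totals, and the second was -0.0030 with library totals. Of the smooth muscle and vessel markers 1 rose and 1 fell in plantaris, and 1 rose and 2 fell in soleus. Of the Schwann cell markers 1 rose in plantaris, or 0 without number 4, and the adipocyte marker passed in neither muscle. The part of any of these markers in the interactions above was not tested.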

How the data were processed

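The deposited table held estimated counts per gene for 48 rat muscle libraries, which the authors made with Salmon 0.9.1 against Ensembl Rnor_6.0 cDNA and ncRNA and summarised per gene with tximport after scaling to transcript length. They are not whole reads (66% of values were not whole) and were rounded. The labels and the methods name different library kits, so whether strand was kept is unsettled, and overlapping genes cannot be told apart. Of 31998 genes, 16960 passed edgeR's expression filter. Counts were scaled by TMM and fitted over the 8 groups with RNA integrity as a covariate, and the interaction was tested by the quasi-likelihood test in edgeR 4.0.16 (R 4.3.3) at a Benjamini-Hochberg adjusted p of 0.05. The spread was thus estimated over both lines. limma 3.58.1 and DESeq2 1.42.0 served as alternatives. CPM values use the same scaling. The 2 muscles of a rat were treated as independent. Nothing beyond separate rats defines the replicates. Named genes were the 10 with the smallest interaction p in each direction among those with a symbol and at least 1 CPM on average, the 6 atrophy genes, the 5 of the difference between lines, and up to 2 unnamed called genes per direction. Members and lists were chosen with earlier results of these data known. Scripts were tested on simulated data. Promoter sequences came from RefSeq (GRCr8), where 3 of 3 called symbols matched.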

Additional observations from a re-analysis of the deposited data

Results flagged for a closer look

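Within groups of 6 libraries, single values stood apart from the others (Dixon's test at the 95% level) in 18 of 136 gene and group pairs. Chance would give 6.8 if the pairs were independent and normally distributed, which chosen genes read in the same libraries are not, and 6 of the 18 were in HRT-HI plantaris number 4. That library held 1840 CPM of Trim63, 469 of Ampd3, 82.2 of Gadd45a, 77.6 of Bach1, 74.7 of Cdkn1a and 7.05 of Tg. HRT-CTRL soleus number 1 held 203 CPM of Eif4g3, 78.4 of LOC100911515 and 30.8 of Hdac4. The remaining single values were spread over other libraries. In HRT-HI soleus these were Tmem100 at 5.29 and ENSRNOG00000031515 at 6.36 CPM in number 1, Il18bp at 25.2 in number 2, ENSRNOG00000015774 at 54.3 in number 3, Trim63 at 250 in number 4 and Tmem51 at 1.19 in number 6. In HRT-CTRL soleus they were Tg at 5.27 in number 3, ENSRNOG00000015774 at 44.6 in number 4 and Il18bp at 7.96 in number 6.

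The response to immobilization differed between muscles by the interaction test for the 3 called genes with a symbol, Gabrr1 (-3.06), Hs3st1 (-2.44) and Glrx (-1.41). No cause of these values was tested.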

How the results depend on the processing

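All 16 called genes kept their direction under each alternative in which they could be fitted, but their number did not hold. Against 16 calls (7 higher, 9 lower), DESeq2's Wald test gave 110 (76 and 34), no RNA integrity covariate 64 (42 and 22), all genes with any count 1 (0 and 1), library totals 14 (11 and 3), and the 24 HRT libraries alone 11 with 5 lower. With an absolute log2 change over 1 required there were 5, and 0 at an adjusted p below 0.001. Leaving out a library gave 1 to 27 calls, 0 to 15 higher and 1 to 15 lower. The cause was not tested.

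The shared numbers of plantaris and soleus libraries were not taken as pairs: same-numbered libraries deviated together (r 0.117 to 0.351) in 10 of 12 pairs, each of them best with its own number, but not in HRT-CTRL 1 and 2 (-0.0503 and -0.026). There plantaris 1 lay closest to soleus 2 (0.244) and plantaris 2 to soleus 1 (0.0475), so the block may join libraries of different rats. With the number as a fixed replicate block there were 129 calls (60 and 69), with a random block in limma-voom 150 (81 and 69), and with the block but without HRT-CTRL 1 and 2, an alternative chosen after seeing the data, 124 (50 and 74). Of the 16 genes called without a block, 14, 16 and 12 were called in these fits. The responses within a muscle cannot be fitted with a fixed block, because each rat has 1 treatment.

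The LRT interaction, with 370 calls, gave 738 by DESeq2, 165 with any count, 1279, 1185 and 1682 under those 3 blocks, and 256 to 732 without single libraries. Genes at p below 0.05 between the lines (461) numbered 897 with any count, 833, 811 and 1034 under the blocks, and 426 to 630 without single libraries, and DESeq2 called 4. HRT plantaris calls were 3019 with library totals and 933 to 2408 without single libraries, and soleus calls 1376 to 3375. With muscle enrichment over 2 log2 units, 1 plantaris-enriched gene was above and 55 below 0, and 24 soleus-enriched genes above and 6 below.

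Interactions changed sign for Hdac4 (-0.058 in HRT alone, -0.074 under the added block, -0.0054 to 0.68 without single libraries), Gadd45a (-0.046 under the block, -0.26 to 0.82), Tmem51 (0.0051 with library totals, -0.20 to 0.14) and LOC100911515 (1.09 as fitted, -0.074 under the added block, -0.17 to 1.39, the lowest without HRT-CTRL soleus number 1).

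Which genes sequencing depth limits was not tested, and the calls rest on 6 rats per group.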
